A study of Mus musculus with 34 samples.

Results

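AP-1 is a family of basic leucine zipper proteins that bind DNA as dimers of Jun, Fos and ATF type subunits, and several of its genes are known targets of AP-1 itself. Jun, Junb and Jund encode the Jun subunits, Fos, Fosb, Fosl1 and Fosl2 the Fos subunits, and Atf3 and Batf encode 2 further partners. Fos type proteins bind DNA with a Jun partner, while Jun proteins can also pair with each other. In macrophages these genes are known as immediate early or inflammatory response genes, and Jund is expressed in most resting cells.

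The binding of AP-1 at these 9 genes was read from ChIP-seq peak lists of thioglycollate-elicited macrophages (TGEMs), which are inflammatory macrophages flushed from the mouse peritoneum. A peak was counted at a gene when its midpoint lay in the gene body or within 20 kb on either side, which held 1084 of the 596383 peaks of the 30 lists and 839 of the 455382 peaks of the 25 lists of AP-1 antibodies. The mice were male, of C57Bl/6EiJ, Balb/cJ or PPARgKO genotype by the labels, and the wild-type mice were 8 weeks old. The substrain is C57Bl/6EiJ in the labels and C57Bl/6J in the methods. The titles place PPARgKO on C57Bl6, and its construct and age are not given in the sources used here. The cells received vehicle (PBS, Veh) or 100 ng/mL of Kdo2 lipid A (KLA), a TLR4 agonist, for 1 h. ATF3, Jun, JunD, Fos, FosL2 (Fra2) and JunB were precipitated from C57Bl/6EiJ cells with Veh and with KLA. The same antibodies except that against FosL2 were used in Balb/cJ cells with both treatments, and ATF3, Jun and JunD were precipitated from PPARgKO cells with Veh. PPARγ (Veh), PU.1 and CEBPα (both treatments) were precipitated from C57Bl/6EiJ cells. FosB, Fosl1 and Batf proteins were not precipitated, and no list measures PPARγ in PPARgKO cells, so the knockout could not be checked here.

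Each condition had 1 list in which the authors had combined the replicates, so no difference below has a replicate error or a test, and intervals cover counting error only. The counts of an AP-1 list summed to at most 10395306 (JunD, KLA, C57Bl/6EiJ), and the median count per peak was 277 in that list against 50 for JunD in Veh. Peaks were therefore ranked by count within their own list, with rank 1 the highest count, and the rank was also expressed as a percent of the list. The Veh lists of Fos (1804 peaks) and JunB (463 peaks) in C57Bl/6EiJ were short, that of JunB in Balb/cJ held 9 peaks and that of Fos in Balb/cJ held 0, so that a peak with KLA and none with Veh has little meaning for these antibodies. The macrophage genes Adgre1, Itgam, Cd68, Lyz2 and Mrc1 had 6 to 13 PU.1 peaks and 3 to 5 CEBPα peaks each with Veh, and the lymphocyte genes Cd3e, Cd4 and Cd79a had 1 to 8 and 0 to 1.

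Overlapping peaks of the 25 AP-1 lists were joined into 118 loci at the 9 genes, of 70555 such loci in the genome. Atf3 held 26 loci, Junb 17, Fos 16, Fosl2 16, Fosb 10, Fosl1 10, Jund 9, Batf 8 and Jun 6. Of the 118 loci, 66 were intergenic, 28 intronic, 9 in noncoding genes, 8 in annotated UTRs, 4 in other exons and 3 in coding sequence, and 14 had their centre within 1 kb of the gene's most upstream annotated start. With only the most upstream GENCODE start of each gene counted, the nearest start belonged to another gene at 33 loci, such as Hook2 at 6 of the Junb loci. The 33 include Atf3 loci assigned to Fam71a, among them the locus that spans the RefSeq start of Atf3. That start lies 34706 bp downstream of the GENCODE start and was not counted.

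The locus with peaks in the most AP-1 lists was taken for each gene, and the sequences are shown for those at Jun, Junb, Jund, Fos and Atf3 because they lay in 18 to 21 of the 25 lists. They are the central bases of each locus on the plus strand of GRCm38, without annotated UTR bases, and capitals mark matches to TGACTCA (the TRE), TGACGTCA (the CRE), TGACATCA, TTACGTCA, TGACCTCA or TGAGCTCA on either strand.
Jun, chr4:95052223-95052372: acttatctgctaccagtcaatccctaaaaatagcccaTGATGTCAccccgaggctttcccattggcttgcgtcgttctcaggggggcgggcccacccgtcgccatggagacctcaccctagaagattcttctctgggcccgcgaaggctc
Junb, chr8:84979742-84979941: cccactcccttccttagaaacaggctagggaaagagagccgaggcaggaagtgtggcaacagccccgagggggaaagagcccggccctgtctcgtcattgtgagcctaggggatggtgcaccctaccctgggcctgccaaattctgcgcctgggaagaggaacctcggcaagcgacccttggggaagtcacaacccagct
Jund, chr8:70698760-70698948: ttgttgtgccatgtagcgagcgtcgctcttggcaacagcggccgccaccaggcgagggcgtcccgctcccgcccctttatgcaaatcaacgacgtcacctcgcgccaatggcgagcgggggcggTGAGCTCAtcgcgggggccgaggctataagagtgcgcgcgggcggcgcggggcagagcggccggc
Fos, chr12:85468749-85468948: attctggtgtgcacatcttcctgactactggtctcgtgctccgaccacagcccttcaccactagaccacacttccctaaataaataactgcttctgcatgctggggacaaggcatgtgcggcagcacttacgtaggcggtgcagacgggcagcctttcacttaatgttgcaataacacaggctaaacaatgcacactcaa
Atf3, chr1:191224347-191224546: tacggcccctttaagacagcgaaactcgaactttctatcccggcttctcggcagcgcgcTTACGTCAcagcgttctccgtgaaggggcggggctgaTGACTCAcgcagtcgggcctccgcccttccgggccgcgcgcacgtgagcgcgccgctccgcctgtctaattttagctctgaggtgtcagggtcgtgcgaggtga

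The Atf3 locus held both TTACGTCA and a TRE, the Jun locus held TGACATCA, read on the plus strand as TGATGTCA, the Jund locus held TGAGCTCA, and none of these letters lay in the windows at Junb and Fos. The central 200 bp of the Jun locus held a further TGACCTCA or TGAGCTCA outside the printed bases. Over all 118 loci the TRE was found in 25 (21.2%, against 24.2% of all AP-1 loci and 5.2% of 32851 RefSeq promoters), and the CRE in 0, against 1.41% of all AP-1 loci. TGACATCA was found in 8 loci (6.78% against 4.46%) and TTACGTCA in 4 (3.39% against 0.595%). At least 1 of these 6 sequences was present in 39 loci, 33.1% against 33.3% of all AP-1 loci. These are matches of letters in 200 bp and do not show which site was bound.

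Counted over the 25 AP-1 lists, Atf3 had the most peaks of the 9 genes, 196, a number that 1.08% of 21911 protein-coding genes reached in the same kind of window, where the median gene had 11. Fos had 137 peaks, reached by 2.72% of genes, Junb 130 (3.07%), Fosl2 93 (6.44%), Fosb 83 (8.07%), Jund 58 (14.2%), Batf 58 (14.2%), Fosl1 54 (15.6%) and Jun 30 (28.7%). Windows grow with the length of the gene, and that of Atf3, 87743 bp, was the longest of the 9, against 43188 bp for Jun and 43383 bp for Fos. In 22 AP-1 lists with at least 1 peak at these genes, the highest peak lay at Atf3 in 17, at Junb in 3 and at Fosb in 1, and Jun and Atf3 tied in 1 (Jun in PPARgKO).

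**Figure D1:**
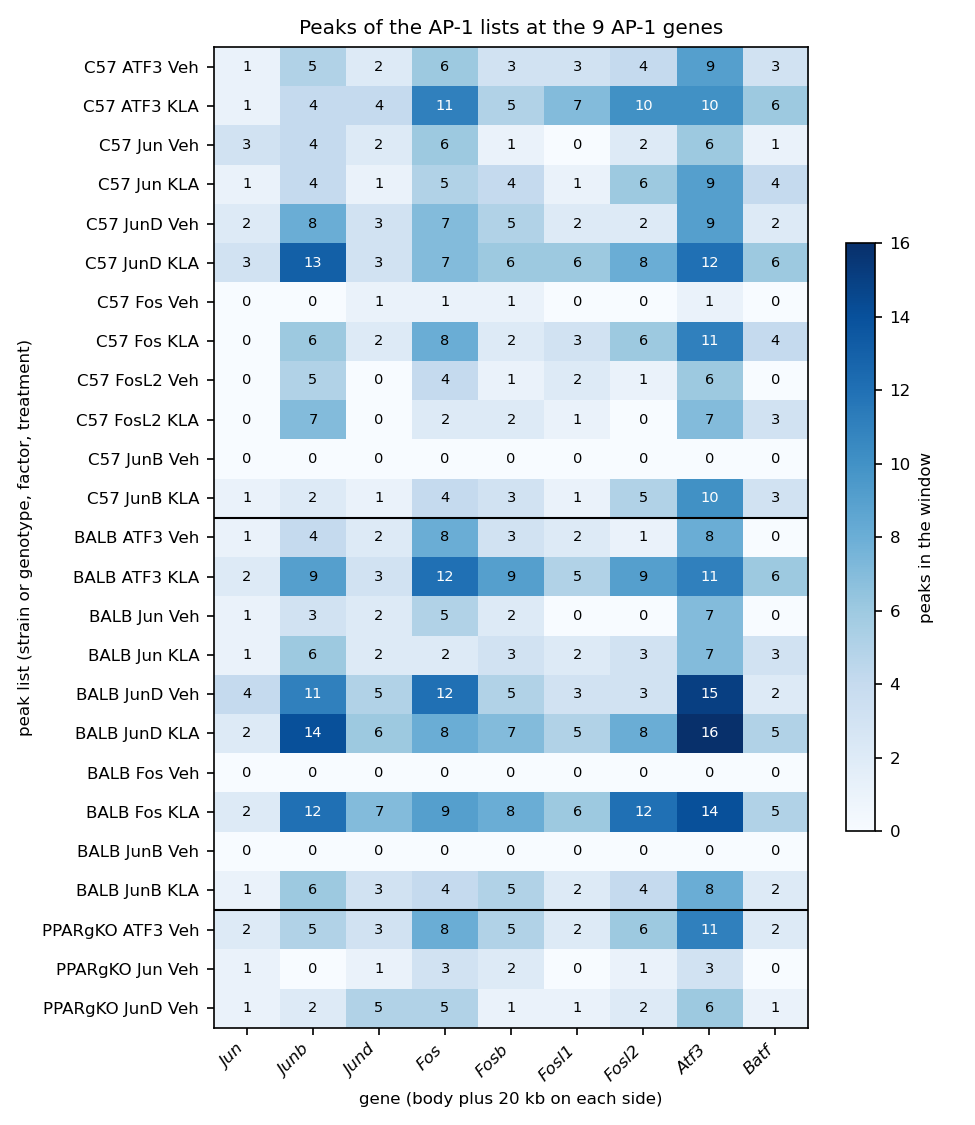
Number of peaks of each AP-1 list (rows: strain or genotype, factor and treatment) in the window of each AP-1 gene (columns), with the number written in each cell. Atf3 has the darkest column, up to 16 peaks for JunD with KLA in Balb/cJ, and the Veh lists of JunB have 0 peaks at all 9 genes.

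With Veh in C57Bl/6EiJ, ATF3 and JunD each had a peak at 9 of the 9 genes, where 47.4% and 45.8% of all protein-coding genes had one. Jun had a peak at 8 genes (all genes 39.4%), FosL2 at 6 (21.2%), Fos at 4 (13.5%) and JunB at 0 (2.35%). With KLA, ATF3 (55.0%), Jun (38.0%), JunD (52.0%) and JunB (30.1%) had a peak at 9 genes, Fos at 8 (44.7%) and FosL2 at 6 (27.8%). In Balb/cJ with KLA all 5 antibodies had a peak at 9 genes, beside 58.9% of all genes for ATF3, 32.6% for Jun, 57.8% for JunD, 58.3% for Fos and 39.9% for JunB. The gene without a Fos peak in C57Bl/6EiJ cells with KLA was Jun. In Balb/cJ with Veh, JunD had a peak at 9 genes (54.3%), ATF3 at 8 (45%), Jun at 6 (30.4%), and Fos (0.0%) and JunB (0.0502%) at 0. In PPARgKO cells, ATF3 (55.7%) and JunD (49.5%) had a peak at 9 genes and Jun at 6 (16.4%).

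At Jun, binding gathered in 1 locus at the start of the gene (chr4:95052104-95052494), which is also annotated to the noncoding gene Junos and had peaks in 18 AP-1 lists. The Jun antibody gave a count of 72 there with Veh (rank 389 of 15548) and 77 with KLA (rank 587 of 17480) in C57Bl/6EiJ. In Balb/cJ its counts were 71 (rank 559 of 10957) and 85 (rank 505 of 11317). All 4 lists placed the Jun protein at its own promoter among their highest 5.1% of peaks. ATF3 also bound this locus with both treatments, with counts of 140 (9.03% of the list) and 173 (11.9%) in C57Bl/6EiJ. FosL2 had no peak there, and Fos had one only in the Balb/cJ KLA list (count 84, 37.1%). Divided by the median ratio of all shared peaks, which is how ratios of counts are scaled below, the KLA over Veh ratio of Jun at this locus was 0.951 (95% interval 0.68 to 1.33) in C57Bl/6EiJ and 1.01 (0.73 to 1.41) in Balb/cJ.

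At Jund the same held for JunD, whose highest peak at its own gene lay at the start (chr8:70698581-70699007) in 5 of 5 JunD lists. Its count there was 107 with Veh and 661 with KLA in C57Bl/6EiJ, at 8.42% and 6.29% of the lists, and 167 and 200 in Balb/cJ, at 1.67% and 1.04%. The raw difference between 107 and 661 was close to the median ratio of 5.82 over all shared JunD peaks, and the scaled ratio was 1.06 (0.864 to 1.31). The Jun antibody ranked this promoter within 6.23% of each of its wild-type lists, higher than JunD did in C57Bl/6EiJ. Fos was weak there in C57Bl/6EiJ cells with KLA, with a count of 27 at 94.0% of its list, and its count in Balb/cJ was 111 at 25.4%. FosL2 had 0 peaks at Jund with either treatment.

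Junb differed from the other Jun genes in that its strongest binding with KLA lay away from the start. The locus at 7.0 kb upstream (chr8:84985480-84985872), closer to the start of Hook2 than to that of Junb, held the highest JunB count with KLA and peaks in 17 AP-1 lists. With KLA, Fos ranked it 199 of 24365 in C57Bl/6EiJ (count 203) and 236 of 40459 in Balb/cJ (count 341), its highest peak at any of the 9 genes in both strains. FosL2 had a count of 124 there with KLA, rank 151 of 10619, and 25 with Veh. ATF3 counts were 40 with Veh and 170 with KLA in C57Bl/6EiJ, a scaled ratio of 2.76 (1.94 to 4.00), and 33 and 200 in Balb/cJ, 3.74 (2.58 to 5.59). JunD had no peak with Veh and 683 with KLA in C57Bl/6EiJ, but 82 and 188 in Balb/cJ (2.04, 1.56 to 2.67). The JunB antibody gave a count of 65 in C57Bl/6EiJ (12.4%) and 121 in Balb/cJ (5.29%) with KLA. The locus 1.1 kb upstream of the start (chr8:84979584-84980110) was in the most lists, 18. With KLA in C57Bl/6EiJ, ATF3 ranked it lower than the locus at 7.0 kb, at 31.9% against 12.4% of the list. With Veh the order was reversed, with an ATF3 count of 55 (50.8%) there against 40 at 7.0 kb.

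Among the Fos genes, Fos itself had its most widely shared locus 5.0 kb upstream (chr12:85468699-85469004), in 20 AP-1 lists and in the PPARγ, PU.1 and CEBPα lists. ATF3 counts there were 141 with Veh and 137 with KLA in C57Bl/6EiJ, and the scaled ratio of 0.631 (0.495 to 0.803) was below 1, while in Balb/cJ the counts were 64 and 121 and the ratio 1.17 (0.856 to 1.61). It was also the locus with the highest Fos count at its own gene with KLA, 73 in C57Bl/6EiJ at 27.6% of the list and 153 in Balb/cJ at 14.5%. The start of Fos (chr12:85473398-85474132) was weakly bound: no AP-1 list of wild-type C57Bl/6EiJ cells had a peak there, PPARgKO ATF3 had one at 76.1% of its list, and the ATF3 and JunD peaks of Balb/cJ ranked between 51.3% and 91.5% of their lists.

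Fosb and Fosl2 had their widest binding 6.6 kb upstream and at the start. At the Fosb locus (chr7:19316220-19316815), all 6 antibodies had a peak with KLA in C57Bl/6EiJ, and JunD (93) and FosL2 (20) with Veh. At the start of Fosl2 (chr5:32135613-32135960), ATF3 counts were 101 with Veh and 173 with KLA, JunD counts 95 and 480, and Jun, Fos and JunB had peaks with KLA only in C57Bl/6EiJ, of 42, 85 and 38. Jun had a Veh peak there in PPARgKO cells (count 20, 38.0% of the list). The FosL2 protein itself had a single weak peak at its own gene, with Veh (count 21, rank 3576 of 5329), and 0 with KLA. Fosl1 had no locus with more than 12 lists, and the locus at its start (chr19:5447469-5448048) ranked at 67.5% of the ATF3 list with Veh and 66.8% with KLA.

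Atf3, which encodes a stress-induced partner of Jun proteins, carried the highest-ranked peaks of the family. The gene has coding transcripts from separate starts, the RefSeq start lies 34706 bp downstream of the most upstream GENCODE start, and distances are given from the latter. Around the RefSeq start (chr1:191183139-191183653) the ATF3 antibody gave a count of 327 with Veh in C57Bl/6EiJ, rank 26 of 23160. In Balb/cJ with Veh the count was 224, rank 19 of 19506, and in PPARgKO cells with Veh it was 261, rank 5 of 28318. This locus was named after its values were seen. With KLA its count was 247 (rank 1376 of 36745) in C57Bl/6EiJ and 231 (rank 308 of 36821) in Balb/cJ, and the scaled ratios were 0.49 (0.414 to 0.58) and 0.637 (0.528 to 0.769). Other antibodies ranked it lower with Veh, JunD at 6.46% and Jun at 12.3% in C57Bl/6EiJ.

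The RefSeq promoter at this locus is printed in the sense of the gene, from the minus strand of GRCm38 and without annotated UTR bases, because the highest ATF3 ranks fell on it. These bases held none of the AP-1 sequences above, although the central 200 bp of the locus, which reach past the start, held TTACGTCA. Here capitals mark a match to TGATGCAA, a composite of a CEBP and an ATF site, read here as TTGCATCA and beginning 110 bp before the RefSeq start. That sequence was found in 0.895% of RefSeq promoters, 2.35% of all AP-1 loci and 4 of the 118 loci. CEBPα had counts of 162 with Veh (10.7% of the list) and 164 with KLA (8.43%) at the locus.
Atf3 promoter, chr1:191183341-191183583: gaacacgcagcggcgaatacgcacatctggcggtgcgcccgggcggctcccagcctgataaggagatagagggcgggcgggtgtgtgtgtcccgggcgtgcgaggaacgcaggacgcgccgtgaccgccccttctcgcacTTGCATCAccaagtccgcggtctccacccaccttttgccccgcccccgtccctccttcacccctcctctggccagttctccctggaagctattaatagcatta

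A second strong locus lay 12.7 kb upstream of the GENCODE start of Atf3 (chr1:191230614-191231007), with peaks in 20 AP-1 lists and, by count, a mean percentile of 97.9 over these lists. The Jun antibody ranked it 25 of 15548 with Veh in C57Bl/6EiJ (count 101) and 25 of 10957 in Balb/cJ (count 115), and 320 of 17480 (86) and 66 of 11317 (113) with KLA. ATF3 counts were 272 with Veh and 370 with KLA in C57Bl/6EiJ and 185 and 301 in Balb/cJ, with scaled ratios of 0.883 (0.753 to 1.04) and 1.0 (0.834 to 1.21). A PPARγ peak of rank 42 of 31089 (count 444) overlapped one edge of it. In the ATF3, Jun and JunD lists of both strains and treatments it ranked between 0.114% and 1.83% of the list. The locus at 6.4 kb upstream, printed above, had peaks in 21 lists, the most of all 118 loci.

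In the intron between the upstream and the RefSeq start, 2 loci ranked high with KLA. They were chosen after their values were seen. At 28.0 kb downstream of the start (chr1:191189865-191190297), ATF3 counts were 108 with Veh and 334 with KLA in C57Bl/6EiJ, a scaled ratio of 2.01 (1.61 to 2.52), and 59 and 211 in Balb/cJ, 2.21 (1.65 to 3.00). JunD counts in C57Bl/6EiJ were 54 and 834, a scaled ratio of 2.65 (2.01 to 3.56). At 24.2 kb (chr1:191193670-191194113), all 6 antibodies in C57Bl/6EiJ and all 5 in Balb/cJ had a peak with KLA, whereas no wild-type Veh list had one. The ATF3 count was 310 with KLA in C57Bl/6EiJ, rank 472 of 36745, and 197 in Balb/cJ, rank 725 of 36821. PPARgKO ATF3 with Veh had a count of 26 there, at 56.5% of its list. PU.1 was present with Veh (142, at 88.0% of its list) and with KLA (68, at 44.5%). The median KLA over Veh ratio of all shared PU.1 peaks was 0.249.

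**Figure D2:**
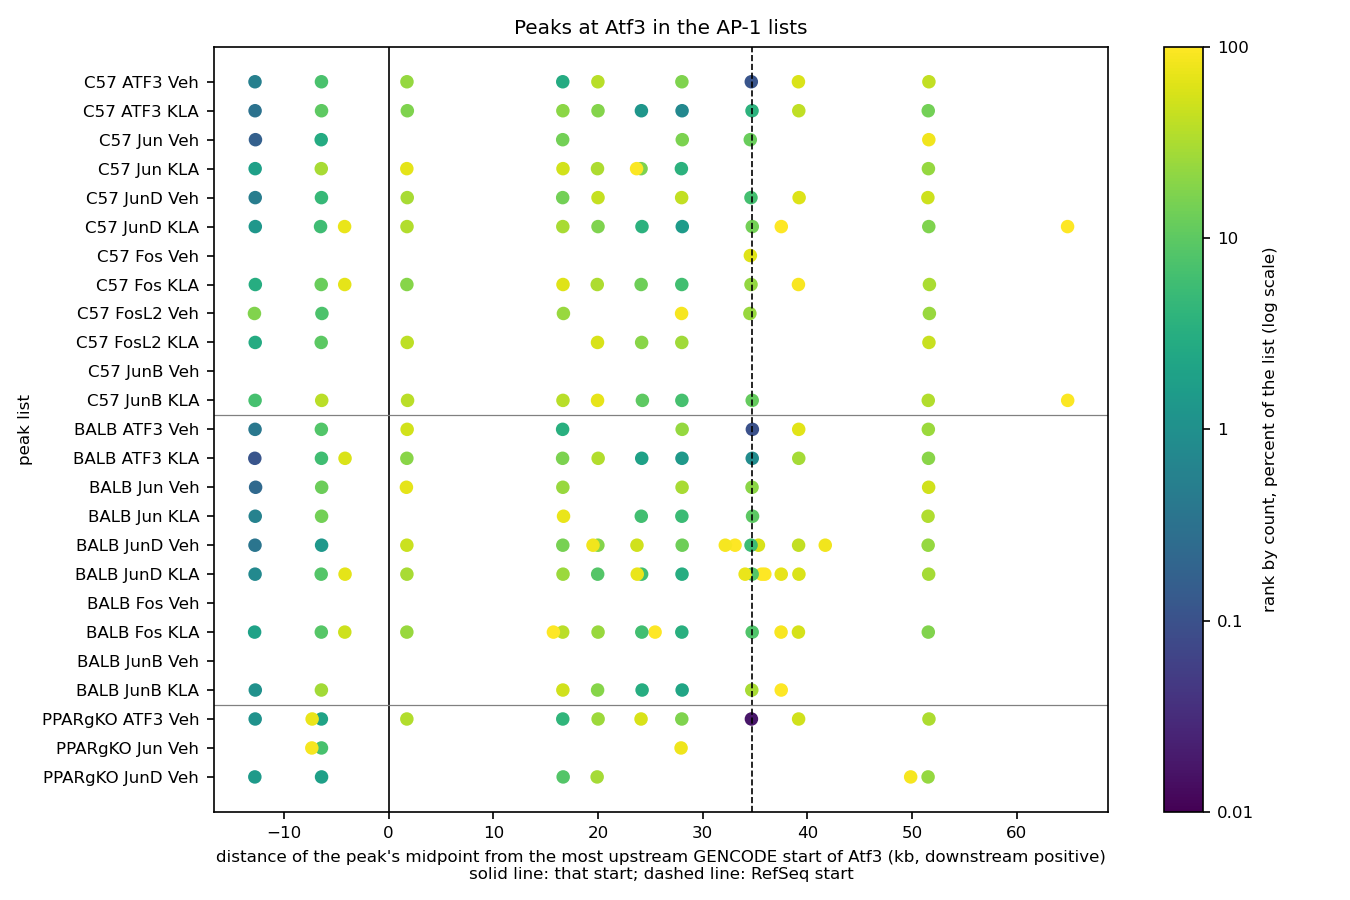
Peaks of the 25 AP-1 lists (rows) at Atf3 by the distance of their midpoint from the most upstream GENCODE start (x axis, kb, downstream positive), coloured by rank within the list as a percent on a log scale, darker being higher. The ATF3 Veh peaks at the dashed RefSeq start are darkest, and the column at 24.2 kb has points in KLA rows and in the PPARgKO ATF3 row, beside a JunD Veh point of Balb/cJ at 23.7 kb.

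Batf, which encodes a partner of Jun proteins in immune cells, had its widest locus 24.1 kb downstream of its start (chr12:85710633-85711038), past the end of the gene. ATF3 counts there were 57 with Veh and 172 with KLA in C57Bl/6EiJ (scaled ratio 1.96, 1.44 to 2.69). Jun counts were 23 and 71 (2.74, 1.69 to 4.6), and Fos (136), FosL2 (76) and JunB (76) had peaks with KLA only. In Balb/cJ, JunD had a peak with Veh (77), and ATF3 (104), Jun (45), JunD (136), Fos (173) and JunB (92) had one with KLA. PU.1 ranked it 754 of 41573 with Veh and 335 of 40645 with KLA, and PPARγ ranked it 192 of 31089. At Batf in Balb/cJ, ATF3 had 0 peaks with Veh and 6 with KLA, and Jun 0 and 3. Jun likewise had 0 with Veh and 2 with KLA at Fosl1, and 0 and 3 at Fosl2.

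**Figure D3:**
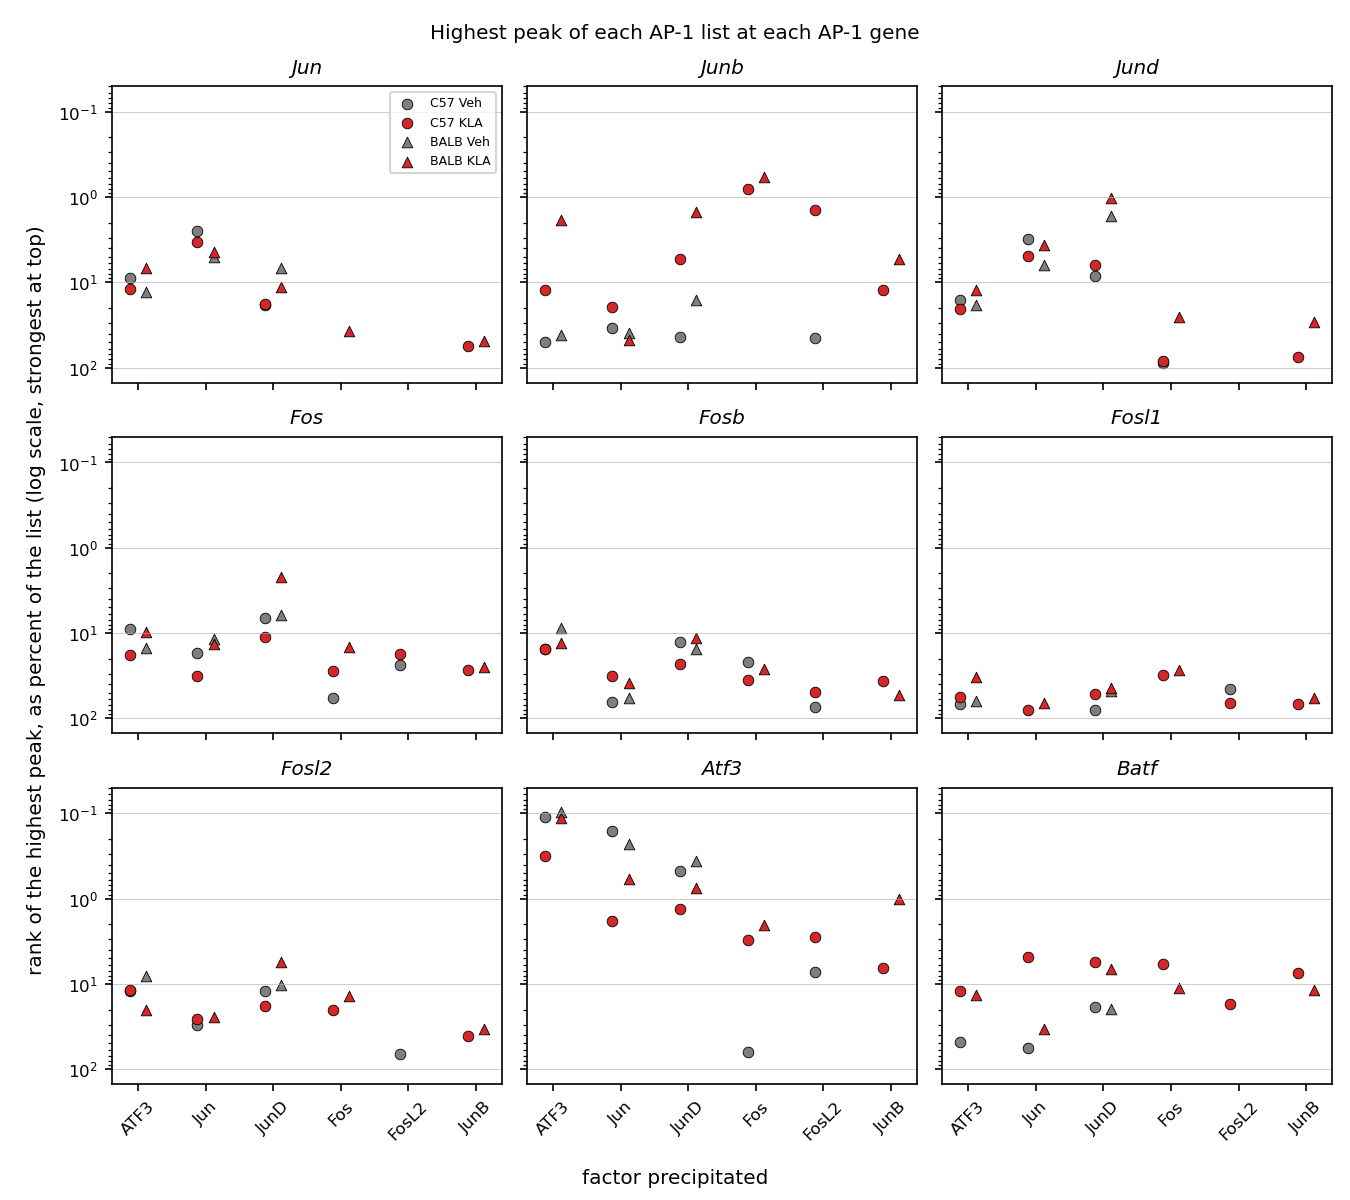
Rank of the highest peak at each AP-1 gene (panels) for each AP-1 antibody in wild-type cells (x axis), as a percent of the list on a log axis with the strongest at the top; circles are C57Bl/6EiJ, triangles Balb/cJ, grey Veh and red KLA. The points of Atf3 reach 0.0974%, those of Fos at Junb reach 0.583%, and those of Fosl1 lie between 27.2% and 80.9%.

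Each antibody was then read at the gene that encodes its own protein. ATF3 had 9 peaks at Atf3 with Veh and 10 with KLA in C57Bl/6EiJ, and 8 and 11 in Balb/cJ. Jun had 3 and 1 peaks at Jun, JunD 3 and 3 at Jund, and Fos 1 and 8 at Fos in C57Bl/6EiJ, where JunB had 0 and 2 at Junb. In C57Bl/6EiJ the own-gene rank was highest for ATF3, followed by Jun (2.5% and 3.36%) and JunD (8.42% and 6.29%). With KLA, JunB (12.4%) and Fos (27.6%) came next, while FosL2 had no peak at Fosl2. Jun (0.161% and 1.83%) and JunD (0.478% and 1.33%) ranked higher at Atf3 than at their own genes in this strain. The same held in Balb/cJ, with Jun at 0.228% and 0.583% and JunD at 0.363% and 0.762% at Atf3. In PPARgKO cells JunD also ranked higher at Atf3 (1.47%), and Jun ranked equally at both genes (6.76%). In Balb/cJ, JunD at Jund (1.67% and 1.04%) ranked above Jun at Jun (5.1% and 4.46%), as it did in PPARgKO cells (2.87% and 6.76%).

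To ask which peaks came with KLA, the share of KLA peaks without an overlapping Veh peak was compared with the same share over the whole list. For ATF3 in C57Bl/6EiJ it was 25 of 58 peaks, 43.1% (95% Wilson interval 31.2 to 55.9), against 48.8% of all ATF3 KLA peaks. For Jun it was 57.1% (40.9 to 72.0) against 48.6%, and for JunD 51.6% (39.6 to 63.4) against 51.6%. FosL2 had 59.1% (38.7 to 76.7) against 75.3%, Fos 92.9% against 95.5% and JunB 100% against 98.2%. In Balb/cJ, ATF3 had 57.6% (all peaks 57%), Jun 58.6% (51.7%) and JunD 46.5% (47.3%). The background share lay within the interval of the 9 genes in each of these pairs. Conversely, 32 of 36 ATF3 Veh peaks of C57Bl/6EiJ (88.9%, against 81.1% of all) and 27 of 29 of Balb/cJ (93.1% against 81.1%) had a KLA peak. In C57Bl/6EiJ the JunD share was 77.5% (all peaks 77.8%), that of Jun 60.0% (57.7%), that of FosL2 47.4% (49.2%) and that of Fos 3 of 4 peaks (60.6%). In Balb/cJ, JunD kept 63.3% (62.2%) and Jun 60.0% (50.0%) of their Veh peaks with KLA.

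By locus, 43 of the 118 loci had a peak of at least 1 AP-1 antibody with both treatments in C57Bl/6EiJ (36.4%, against 34.0% of all AP-1 loci), 36 with KLA only (30.5% against 26.5%) and 9 with Veh only (7.63% against 9.03%). Fosl2 (8 loci with KLA only, 3 with both) and Batf (4 and 2) had more loci with KLA only than with both, and Atf3 had 5 and 9. In Balb/cJ, 50 loci had both (42.4% against 37.2%), 46 KLA only (39% against 35.4%) and 11 Veh only (9.32% against 9.87%). Peaks with KLA in both strains and with Veh in neither were found at 26 loci (22.0% against 15.4%), 6 of them at Fosl2 and 4 at Batf. All 6 antibodies had a KLA peak in C57Bl/6EiJ at 12 loci (10.2% against 8.36%), and 7 of these were at Atf3. At shared peaks, 3 of 33 ATF3 loci in C57Bl/6EiJ had a scaled KLA over Veh ratio of at least 2 and 4 one of at most 0.5, where all shared ATF3 peaks gave 6.89% and 5.22%. In Balb/cJ the numbers were 3 and 4 of 28 (6.88% and 6.52%). JunD had 1 of 31 loci at least 2-fold higher in C57Bl/6EiJ (6.43%) and 5 of 38 in Balb/cJ (9.31%), and 0 lower in either strain (2.88% and 4.7%). Jun had 3 of 15 higher (5.79%) and 1 lower (2.86%) in C57Bl/6EiJ, and 0 of 12 either way in Balb/cJ (5.39% and 2.96%). FosL2 had 1 of 9 higher (2.59%) and 0 lower (2.82%), and Fos 0 of 3 higher (6.65%) and 1 lower (28.0%).

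Between strains, the ATF3 peaks of C57Bl/6EiJ at the 9 genes had an overlapping Balb/cJ peak in 23 of 36 cases with Veh (63.9%, 47.6 to 77.5, against 63.0% of all) and in 52 of 58 with KLA (89.7%, 79.2 to 95.2, against 76.4%). With KLA, the Jun share was 45.7% (30.5 to 61.8) against 46.5%, that of JunD 73.4% (61.5 to 82.7) against 74.0%, that of Fos 95.2% (84.2 to 98.7) against 89.4% and that of JunB 66.7% (48.8 to 80.8) against 79.2%. With Veh, JunD had 87.5% (73.9 to 94.5) against 75.7% and Jun 64.0% (44.5 to 79.8) against 48.6%. The interval of ATF3 with KLA was the only one of these 8 that did not hold the background share. Read from Balb/cJ, the shares of peaks with a C57Bl/6EiJ peak with Veh were 79.3% for ATF3 (all peaks 74.8%), 80% for Jun (68.9%) and 58.3% for JunD (51.9%). With KLA they were 78.8% for ATF3 (76.3%), 66.2% for JunD (69.2%), 53.3% for Fos (53.9%) and 57.1% for JunB (48.9%), and that of Jun was 55.2% (37.5 to 71.6, against 71.7%). In this direction the ATF3 interval with KLA (67.5 to 86.9) held the background share, and that of Jun with KLA lay just below it. Count ratios of Balb/cJ over C57Bl/6EiJ of at least 2 after scaling were found at 5 of 47 shared JunD loci with KLA (2 at Junb, 2 at Fosb and 1 at Jund), where all shared peaks gave 1.16%, and at 1 of 52 for ATF3 (1.28%) and 1 of 40 for Fos (1.22%). A ratio of at most 0.5 with KLA was found at 1 ATF3 locus (1.65%) and at 0 loci of JunD (1.37%), Fos (2.22%), Jun (0.629%) and JunB (1.7%), and Jun (0.703%) and JunB (1.91%) had 0 higher. With Veh 0 loci lay beyond either limit, where the higher and lower shares of all shared peaks were 1.43% and 1.06% for ATF3, 1.11% and 0.913% for Jun, and 0.558% and 1.24% for JunD. At the start of Jund, Fos with KLA had a scaled ratio of 2.24 (1.46 to 3.55).

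In PPARgKO cells with Veh, 29 of 36 wild-type ATF3 peaks at the 9 genes were kept (80.6%, 65.0 to 90.2, against 78.2% of all ATF3 peaks). Of the Jun peaks, 7 of 25 were kept (28.0%, 14.3 to 47.6, against 21.8%), and of the JunD peaks 15 of 40 (37.5%, 24.2 to 53.0, against 53.5%). The background share lay outside the interval for JunD, just above its upper end, and inside it for ATF3 and Jun. Of the peaks in the knockout lists, 65.9% for ATF3 (all peaks 63.9%), 63.6% for Jun (79.0%) and 62.5% for JunD (54.3%) had a wild-type peak. The knockout Jun list was short, 4290 peaks against 15548, and with both Jun lists brought to equal length the share was 54.5% (28.0 to 78.7), against 52.5% of all Jun peaks. The promoters of Jun and Jund kept Jun (counts of 33 and 32) and JunD (70 and 125), Jun was also kept at the most shared loci of Atf3 (33) and Fos (23), all of which had a PPARγ peak in wild-type cells, and JunD had 6 peaks at Atf3 against 9 in wild-type cells. The Atf3 locus 12.7 kb upstream had no Jun peak in the knockout list, while ATF3 (150, rank 1.11%) and JunD (145, 1.47%) had one. This locus, the Junb locus 1.1 kb upstream and the RefSeq start of Atf3 also had a PPARγ peak in wild-type cells. All of them had a Jun peak in wild-type cells and none in the knockout list. Of the wild-type Jun peaks, 0 of 4 were kept at Junb, 2 of 6 at Atf3 and 3 of 6 at Fos. All 51 shared peaks of the 3 antibodies had scaled knockout over wild-type ratios between 0.5 and 2, where 0.21% and 0.47% of all shared ATF3 peaks, 2.15% and 0.945% of those of Jun and 0.162% and 0.495% of those of JunD lay above and below these limits.

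**Figure D4:**
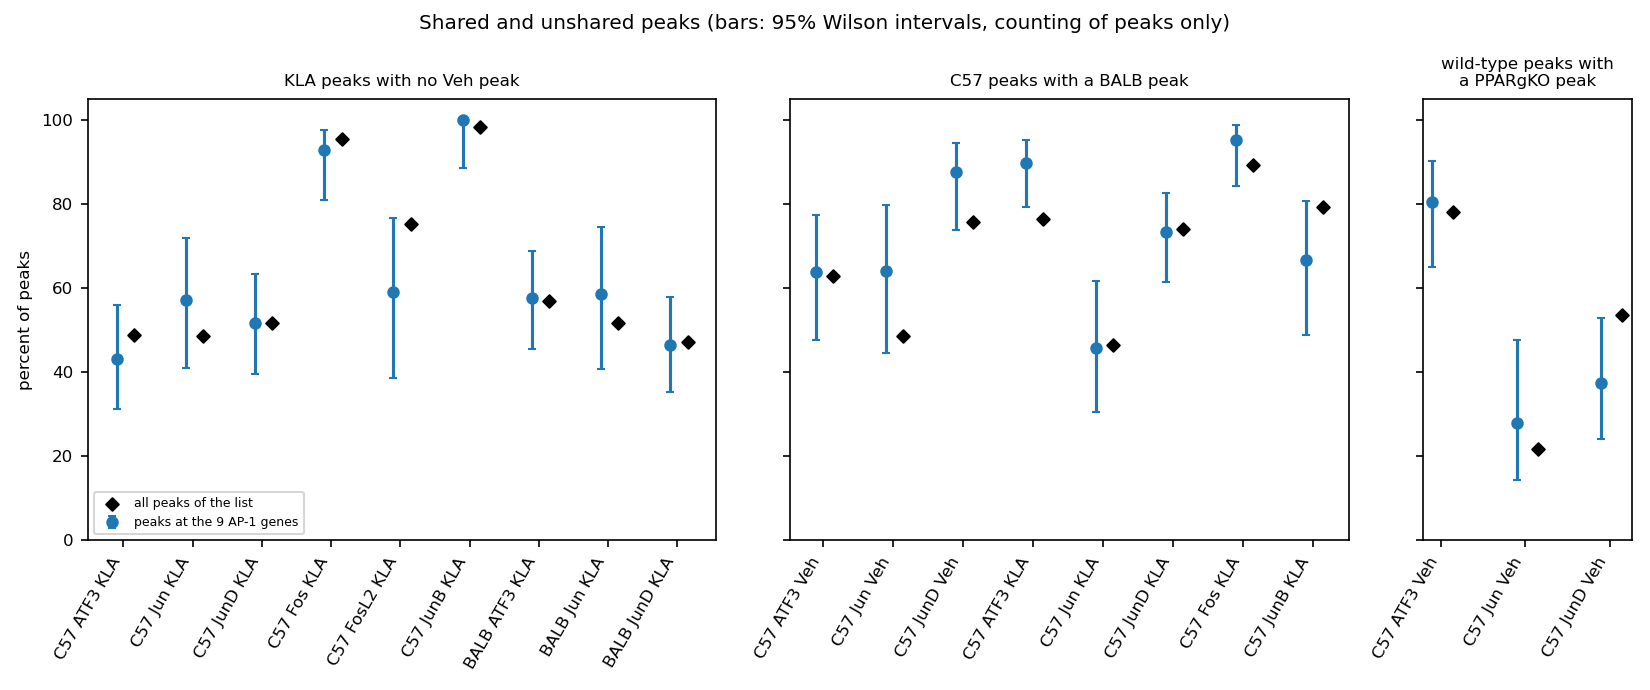
Percent of peaks at the 9 AP-1 genes (blue, with 95% Wilson intervals for counting of peaks) and of all peaks of the same list (black) that had no Veh peak, a Balb/cJ peak or a PPARgKO peak, by list on the x axis. Most black points lie within the blue intervals; the exceptions are ATF3 with KLA between strains and JunD in the knockout.

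Outside the AP-1 antibodies, PPARγ (62.1%) and PU.1 (65.9% with Veh, 63.5% with KLA) had a peak at 9 genes, and CEBPα at 7 with either treatment (37.3% and 37.6%). PU.1 had a peak at 43 of the 118 loci with Veh (36.4% against 37.8% of all AP-1 loci) and at 51 with KLA (43.2% against 42.5%). CEBPα had 19 with Veh (16.1% against 16.3%) and 25 with KLA (21.2% against 19.5%), and PPARγ 56 with Veh (47.5% against 35.7%). CEBPα ranked a Fosl2 locus 2.8 kb after the start 315 of 12892 with Veh (count 236), where ATF3 had 125 with Veh and 77 with KLA.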

How the data were processed

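ChIP-seq peak lists of 30 conditions were analysed (34 samples, of which 4 are inputs without a list here). Per the labels and the methods, the authors aligned reads to mm10 by Bowtie2, using for Balb/cJ a genome of that strain whose positions were then moved to mm10 coordinates. Peaks were found by HOMER relative to the input of the same treatment, and those whose IDR over replicates was 0.05 or higher were dropped by the authors. The deposited count of each peak is a whole number not adjusted for sequencing depth, and the way replicate counts were joined is not given in the sources used here. The deposited score is the scaled IDR, 540 at an IDR of 0.05 and at most 1000, and was used in 1 alternative.

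Groups were taken from the labels. Genes were those of GENCODE vM21, and peaks with their midpoint in the gene body or within 20 kb were counted. Peaks overlapping by 1 bp or more were shared, and shares had 95% Wilson intervals. Ratios of counts were divided by the median ratio of all shared peaks, were called at 2-fold and had exact conditional binomial intervals. Both intervals cover counting error only. Motifs were searched as letters in the central 200 bp on both strands of GRCm38, the build of the lists. Promoters were those of RefSeq on GRCm38.p6, from 250 bp before to 50 bp after a start. Named loci were, for each gene, the locus in most AP-1 lists, the one nearest the start if within 1 kb, and the one with the highest own-factor count with KLA. The members and gene lists were chosen with earlier results of these data known. No test was run, since each condition has 1 list. Alternatives changed the window, the assignment of peaks, the IDR threshold, the strength and length of lists, the overlap and the scaling of counts. Overlap, motif and ratio steps were tested on simulated data. Python 3.11.15, numpy, pandas, scipy and matplotlib were used. The Balb/cJ Fos Veh list holds 0 peaks.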

Additional observations from a re-analysis of the deposited data

Results flagged for a closer look

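At some loci an antibody had a stronger or new peak with KLA in one strain and a weaker or absent one in the other. With 1 list per condition these differences were not tested. Most of the counts given here lay below the median count of their list. The rate of such opposite changes over all AP-1 loci was not computed. ATF3 at the Fos locus 16.2 kb downstream of the start had a peak with KLA only in C57Bl/6EiJ (count 58) and with Veh only in Balb/cJ (31). ATF3 at the Jund locus 21.2 kb downstream had one with KLA only in C57Bl/6EiJ (37) and with Veh only in Balb/cJ (28). At the Fosb locus 6.6 kb upstream, ATF3 had 81 with KLA and no Veh peak in C57Bl/6EiJ, but 80 with Veh and 49 with KLA in Balb/cJ, a scaled ratio of 0.378. Jun at the same locus had a KLA peak only in C57Bl/6EiJ (22) and a Veh peak only in Balb/cJ (27). The exon of Fosb 1.3 kb after its start showed the opposite pattern for ATF3, with 52 with Veh only in C57Bl/6EiJ and 28 with KLA only in Balb/cJ, and for Jun, with 21 with Veh and 27 with KLA. At the Junb locus 7.0 kb upstream, Jun counts were 20 and 47 in C57Bl/6EiJ, a scaled ratio of 2.09, and Balb/cJ had 34 with Veh and no KLA peak. Jun at the Atf3 locus 1.8 kb downstream had a count of 24 with KLA only in C57Bl/6EiJ and of 24 with Veh only in Balb/cJ. JunD at the Junb locus 12.6 kb downstream had 33 with Veh only in C57Bl/6EiJ and 26 with KLA only in Balb/cJ. JunD at the Fos locus 13 kb downstream had 199 with KLA only in C57Bl/6EiJ (list median 277) and 39 with Veh only in Balb/cJ (list median 43).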

How the results depend on the processing

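Over 55 results and 277 alternative settings, 249 values stayed and 28 moved. A share stayed if it lay within the reported interval, and a number of genes or antibodies if within 1.5 times of the reported one. A median ratio stayed if its log2 changed by no more than the standard deviation of the log2 ratios of the shared peaks. Windows of 50 kb, the nearest start, 50% reciprocal overlap and centres within 100 bp moved 0 values. The shares below are for peaks at the AP-1 genes. Only with lists of equal length was the share of all peaks computed under the same setting. Whether the other settings moved the share of all peaks alike was therefore not tested. With flanks of 5 kb, FosL2 with Veh in C57Bl/6EiJ had a peak at 3 genes, the share of ATF3 KLA peaks without a Veh peak in C57Bl/6EiJ was 19.2%, and 91.3% of wild-type ATF3 peaks were kept in PPARgKO. With an IDR under 0.01, Fos with Veh had a peak at 1 gene and FosL2 with Veh at 3, 3 antibodies bound their own gene with Veh in C57Bl/6EiJ, 100% of Fos KLA peaks had no Veh peak, 33.3% of Balb/cJ Jun KLA peaks had none, 96.2% of C57Bl/6EiJ JunD Veh peaks had a Balb/cJ peak, and 92.9% of ATF3 peaks were kept in PPARgKO. With the strongest 50% of each list, Fos with Veh had a peak at 1 gene, 3 antibodies bound their own gene with Veh, the KLA shares without a Veh peak were 29.6% for JunD and 100% for Fos in C57Bl/6EiJ, the shares of C57Bl/6EiJ peaks with a Balb/cJ peak were 95.5% for JunD with Veh, 96.9% for ATF3 with KLA and 85.2% for JunD with KLA, and those kept in PPARgKO were 95.2% for ATF3 and 54.5% for JunD. With lists of equal length, the KLA shares without a Veh peak were 30.0% for ATF3 (all peaks 33.7%) and 100% for Fos (81%) in C57Bl/6EiJ and 41.0% for ATF3 (37.4%) in Balb/cJ, and 54.5% of Jun peaks (52.5%) were kept in PPARgKO. Scaling by summed counts gave median KLA over Veh ratios of 0.674 for JunD, 0.0945 for Fos and 0.574 for FosL2 in C57Bl/6EiJ. Scaling by the median of shared peaks had given 1.02, 0.701 and 1.02. For Jun, summed counts gave 1.43 with KLA between strains (0.992 by the median) and 2.49 in PPARgKO (0.975). A summed count covers all peaks of a list, shared or not, and the lists differed in length. The Jun Veh lists held 4290 peaks in PPARgKO and 15548 in wild-type cells. The cause of the moved values was not tested. No paired analysis was possible because each condition has 1 list and the labels carry no replicate numbers. The short Veh lists of Fos and JunB limit what can be said of them.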

Other observations

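The other bZIP genes, 25 genes listed with earlier results of these data known, were read in the same windows. With Veh in C57Bl/6EiJ, ATF3 had a peak at 23 of the 25 (47.4% of all protein-coding genes) and Jun at 23 (39.4%). JunD had one at 22 (45.8%), FosL2 at 16 (21.2%), Fos at 5 (13.5%) and JunB at 1 (2.35%). With KLA, JunD had a peak at 24 of them (all genes 52.0%), ATF3 at 23 (55.0%), Fos at 22 (44.7%) and JunB at 19 (30.1%). Jun (38.0%) and FosL2 (27.8%) had one at 17. The median number of ATF3 peaks with KLA was 5 per gene, against 6 at the 9 AP-1 genes.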
